A study of Homo sapiens with 9 samples.

Results

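The NF-κB family of transcription factors and the IκB proteins that hold them back were followed in BL2 cells at the level of RNA. The genes were the subunits NFKB1, NFKB2, REL, RELA and RELB, the cytoplasmic inhibitors NFKBIA, NFKBIB and NFKBIE, and the nuclear IκB proteins NFKBIZ and BCL3. They were represented by every probe set, a group of array probes summarised to 1 value, that the platform annotation assigns to exactly 1 gene of this family. This gave 20 of the 54675 probe sets on the array, for 9 of 19775 genes with a probe set of their own. BCL3 has 2 probe sets, which are assigned to a further gene as well, and is not analysed here.

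The cells were BL2, an established line of human Burkitt lymphoma that stands in the study for transformed B cells of the germinal centre. All arrays come from this line alone. Cells were left untreated as controls, or were stimulated for 6 hrs with soluble recombinant human CD40L at 200 ng/ml or with bacterial LPS at 1 μM. How long the control cells were cultured is not given in the sources used here, so any difference in culture time cannot be told apart from the stimulus. Each of 3 batches, which the study describes as independent biological experiments, contributed 1 HG-U133 Plus 2.0 array per condition (n = 3 arrays per condition, 9 in all). The expression values deposited by the authors are on a generalised log2 scale, on which differences between dim probe sets understate the fold change.

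NF-κB acts as dimers of its subunits, which sit in the cytoplasm of resting cells bound to IκB proteins. In the canonical pathway a kinase complex marks IκBα, IκBβ and IκBε for destruction, and dimers containing RELA or REL enter the nucleus. In the non-canonical pathway the kinase NIK, the product of MAP3K14, triggers the trimming of the NFKB2 precursor, which then pairs with RELB. CD40, the receptor for CD40L on B cells, is known to engage both pathways, whereas the LPS receptor TLR4 is known mainly for the canonical one. Several members of the family are themselves textbook targets of NF-κB, and the inhibitors among them form feedback loops.

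Arrays of the same condition correlated at 0.994 to 0.997. Of the 20 probe sets 17 lay at or above the median level over all probe sets, 6.45, and 3 below it. All 7 measured B cell markers and all 7 germinal centre markers did so. For T and NK cells 4 of 9 markers did so, for monocytes and macrophages 2 of 8 and for fibroblasts 2 of 6. By limma 0 genes of these 3 lists passed the threshold in any comparison, and at an unadjusted p under 0.05 there were 1 T and NK cell and 2 fibroblast markers for CD40L against control and 1 fibroblast marker for CD40L against LPS. The mean level of the T and NK cell markers was 6.37 to 6.46 in control arrays, 6.41 to 6.43 after CD40L and 6.40 to 6.45 after LPS. That of the monocyte markers was 6.23 to 6.31, 6.21 to 6.30 and 6.22 to 6.28, and that of the fibroblast markers 6.48 to 6.58, 6.54 to 6.57 and 6.53 to 6.60. Of the B cell markers 3 of 7 were lower after CD40L, CD79A (−0.45), CD79B (−0.34) and CD22 (−0.46), and 1 of 7 after LPS, CD79A (−0.38), where 2.92% and 1.48% of the brightest probe sets of all genes were lower. By limma 0 B cell markers were higher after either stimulus (background 5.03% and 1.62%). At an unadjusted p under 0.05, 2 were higher after each stimulus, PAX5 (0.39 and 0.31) and BLNK (0.24 and 0.22), and 3 were lower. Of the germinal centre markers 5 of 7 were lower after each stimulus, against the same 2.92% and 1.48%. The largest falls after CD40L were those of CD38 (−0.65), MYBL1 (−0.62) and MME (−0.53). After LPS they were those of MYBL1 (−0.56), CD38 (−0.33) and MME (−0.32). BCL6 was lower as well (−0.47 after CD40L and −0.31 after LPS). In CD40L against LPS 1 of 7 was lower, CD38 (−0.32, background 0.152%). The mean level of the list was 9.08 to 9.10 in control arrays, 8.68 to 8.74 after CD40L and 8.78 to 8.86 after LPS. The part of these shifts in the results that follow was not tested. In bulk RNA, fewer expressing cells and less RNA per cell cannot be told apart.

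The promoters are shown first, because several of these genes are known to respond to NF-κB itself. RefSeq windows (GRCh38.p14) were found for 8 of the 10 genes, not for RELB and NFKBIE, and gave 14 transcription starts. The 250 bases before each start were searched on both strands for the NF-κB consensus, a decamer, with overlapping matches joined. A match was present in 8 of the 14 windows, belonging to 6 genes, while 5.21% of all 35116 windows of this length held a match. The decamer GGGAATTTCC, read on either strand, was picked after the search because more genes of the family shared it than any other match. It stood before NFKB1, REL, NFKBIA, NFKBIB and NFKBIZ and in 0.142% of all windows. Because it was picked for being shared, setting these values side by side is no test. The sequences of 8 of the 10 joined matches follow on the strand of the gene, with the match in capitals.
NFKB1, chr4:102501285-102501344, plus strand, match from −49 to −40: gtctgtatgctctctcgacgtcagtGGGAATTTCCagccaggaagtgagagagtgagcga
REL, chr2:60881502-60881562, plus strand, match from −47 to −37: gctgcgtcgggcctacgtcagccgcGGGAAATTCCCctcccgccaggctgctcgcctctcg
NFKBIA, chr14:35404796-35404855, minus strand, match from −81 to −72: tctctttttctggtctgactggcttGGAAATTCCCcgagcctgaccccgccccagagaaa
NFKBIB, start 2, chr19:38899932-38899960, plus strand, match from −28 to −18: ggcgtggtgGGGAATTTCCCgcagggcgg
NFKBIZ, start 1, chr3:101827742-101827801, plus strand, match from −223 to −214: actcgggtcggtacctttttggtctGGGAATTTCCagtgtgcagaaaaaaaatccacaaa
NFKB2, start 2, chr10:102394462-102394490, plus strand, match from −107 to −97: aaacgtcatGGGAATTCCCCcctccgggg
NFKB2, start 2, chr10:102394490-102394519, plus strand, match from −78 to −69: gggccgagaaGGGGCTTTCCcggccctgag
NFKB2, start 3, chr10:102395674-102395703, plus strand, match from −21 to −12: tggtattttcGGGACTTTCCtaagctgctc

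NFKB2 had 4 joined matches before starts 2 and 3, more than any other gene of the family searched. It also had 3 windows searched, where the others had 1 or 2. Its match not printed lay from −176 to −167 of start 3. The other match not printed lay from −239 to −230 of NFKBIZ start 2. The windows of RELA and BCL3 held no match, which says only that these letters are not in these windows. A match describes the sequence and does not show that NF-κB was bound there in BL2 cells.

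**Figure D1:**
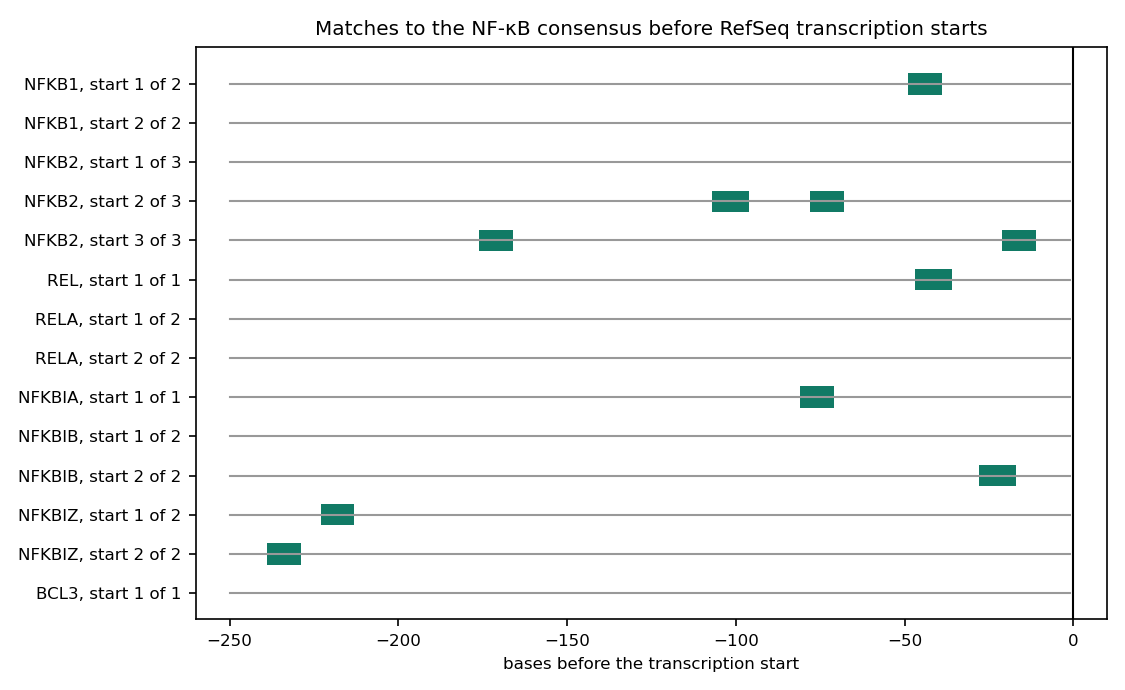
Matches to the NF-κB consensus (green boxes) in the 250 bases before each RefSeq transcription start of 8 NF-κB and IκB genes, drawn to scale, with the distance from the start in bases on the x axis and the start at 0. NFKB1, REL, NFKBIA and NFKBIB carry a match within 81 bases of a start, NFKB2 carries 2 matches in each of 2 windows, and RELA and BCL3 carry none.

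The first question was how the family responds to CD40L. Condition and batch were the terms of a limma fit to the 9 arrays, which gave the log2 fold changes, and a p of at most 0.05 after Benjamini-Hochberg adjustment over 54613 probe sets was the threshold. After CD40L, 6 of the 20 probe sets were higher than in control cells, those of NFKB2, RELB, NFKBIE and NFKBIB, against 3.71% of all probe sets. At the same threshold 2 probe sets were lower, both of REL, against 1.87% of all probe sets. Quantile normalization gave 5 higher and 3 lower of the 20. The backgrounds count dim probe sets too, whereas 17 of the 20 lay at or above the median level. Without the dim ones 1991 probe sets were still higher and 976 lower, so the share called among bright probe sets is larger. The median log2 fold change of the 20 was 0.032, beside 0.0050 over all probe sets. The 3 CD40L arrays all lay above the 3 control arrays for 5 probe sets (background 9.09%) and all below for 2 (background 7.27%). Within each of the 3 batches the CD40L array was the higher for 6 probe sets (background 18.4%) and the lower for 3 (background 14.6%).

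The second question was how LPS acts on the same genes. After LPS, 5 of the 20 probe sets were higher, those of NFKBIE, RELB, NFKBIZ and 1 of NFKBIB, against 1.17% of all probe sets. None was lower by limma at the threshold (background 0.892%), 1 was lower at an unadjusted p under 0.05, and none had all LPS arrays below the control arrays (background 6.38%). The LPS arrays all lay above the controls for 3 probe sets (background 7.00%). Within each batch the LPS array was the higher for 7 probe sets (background 17.0%) and the lower for 2, both of REL (background 14.6%). The median log2 fold change was 0.16, beside 0.0029 over all probe sets. Both stimuli were compared with the same control arrays, so their values stand side by side and are set against each other only in the direct comparison of CD40L with LPS.

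In that direct comparison 3 probe sets were higher after CD40L, both bright ones of NFKB2 and that of NFKBIE, against 0.300% of all probe sets. NFKBIZ was lower after CD40L by both of its probe sets, against 0.0952%. The arrays of the conditions did not overlap for 2 probe sets above (background 5.10%) and 2 below (background 4.07%). In each batch the CD40L array exceeded the LPS array for 7 probe sets (background 15.6%) and was below it for 4 (background 11.6%). The median log2 fold change was 0.037, beside 0.0049 over all probe sets. Permuting 3 arrays against 3 without regard to batch cannot give an exact two-sided p under 0.1. Swaps within batches, which keep the pairing, allow fewer arrangements and so a higher limit. For each gene limma's adjusted p is therefore given.

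**Figure D2:**
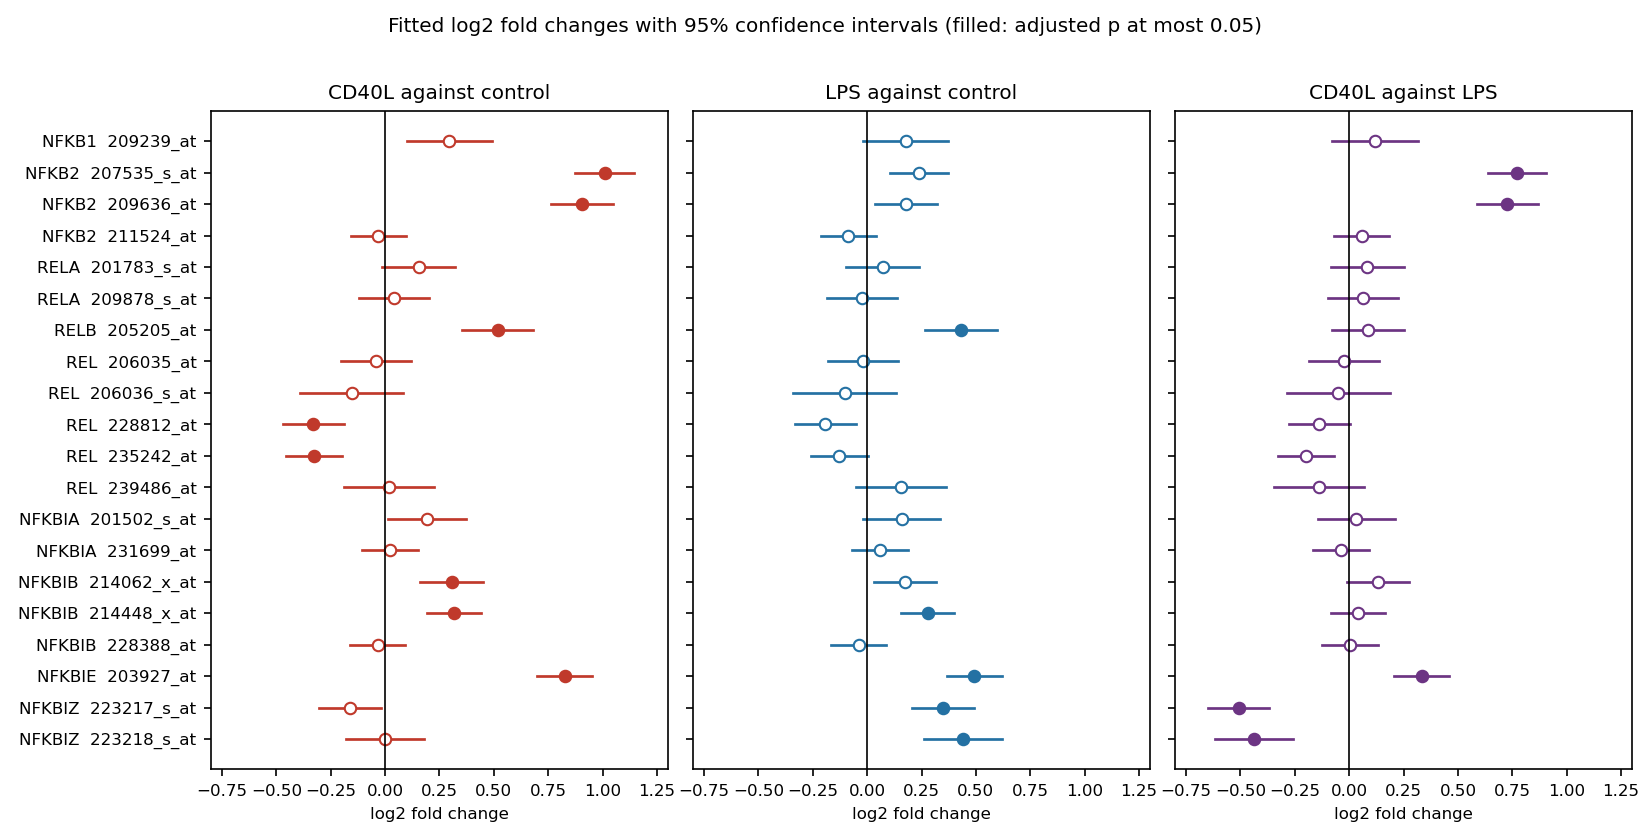
Log2 fold changes (x axis) of the 20 probe sets of NF-κB subunits and IκB inhibitors (y axis) in the 3 comparisons, with 95% confidence intervals from limma and filled points where the adjusted p is at most 0.05. NFKB2 stands out after CD40L at 1.01 and 0.90, NFKBIE and RELB are above 0 after either stimulus, NFKBIZ is above 0 after LPS and below 0 in CD40L against LPS, and REL 228812_at and 235242_at lie below 0 after CD40L.

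Among the subunits, NFKB2, the precursor subunit of the non-canonical pathway, had the largest log2 fold change after CD40L. The levels of its probe set 207535_s_at were 7.91, 7.67 and 7.48 in control batches 1, 2 and 3, 8.76, 8.80 and 8.53 after CD40L, and 8.06, 8.05 and 7.68 after LPS. Every CD40L array was above every control and every LPS array, whereas the LPS and control arrays overlapped. After CD40L the level rose by 1.01 ± 0.063 (SE) on the log2 scale, which is 2.01-fold (adjusted p = 1.09e-07), with batch differences of 0.85, 1.12 and 1.05. After LPS the difference was 0.24 ± 0.063 (adjusted p = 0.0701). It passed the threshold without control replicate 1 (0.30, adjusted p = 0.0434).

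NFKB2 probe set 209636_at gave 7.06, 6.93 and 7.08 in control arrays, 7.99, 7.99 and 7.81 after CD40L, and 7.26, 7.27 and 7.08 after LPS. The CD40L arrays again stood apart from all others. The increase over control was 0.90 ± 0.067 (adjusted p = 5.32e-07) after CD40L, and the value after LPS was 0.18 (adjusted p = 0.261). Measured directly, CD40L exceeded LPS by 0.77 ± 0.063 (adjusted p = 1.57e-05) for 207535_s_at and by 0.73 ± 0.067 (adjusted p = 4.83e-05) for 209636_at. The remaining NFKB2 probe set, 211524_at, lay below the median level of the array with means of 5.96, 5.93 and 5.87 in control, CD40L and LPS arrays, and its CD40L value was −0.031 (adjusted p = 0.897). It therefore did not show the change of the other probe sets of NFKB2, at a level where a change can be hidden.

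RELB, the usual partner of processed NFKB2, was higher after either stimulus. Its levels were 8.88, 8.38 and 8.47 in control arrays, 9.37, 9.12 and 8.81 after CD40L, and 9.21, 9.10 and 8.72 after LPS. Within each batch both stimulated arrays exceeded the control array, but the control array of batch 1 was above the stimulated arrays of batch 3. The log2 fold change was 0.52 ± 0.077 after CD40L (adjusted p = 0.000569), with batch differences of 0.48, 0.73 and 0.34. After LPS it was 0.43 ± 0.077 (adjusted p = 0.00654), with batch differences of 0.32, 0.72 and 0.25. The direct comparison of CD40L with LPS gave 0.086 (95% interval −0.077 to 0.25, adjusted p = 0.999), so a difference of up to 0.25 between the stimuli is within the error. Both calls were lost without the batch as a term (adjusted p = 0.133 after CD40L and 0.386 after LPS) and with the batch as a random effect (0.0796 and 0.270). After LPS, RELB also missed the threshold without replicate 1 (0.49, adjusted p = 0.0594) and without LPS replicate 2 (0.34, adjusted p = 0.0821).

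REL encodes c-Rel, a transactivating subunit that is abundant in B cells, and was measured by 5 probe sets that did not move alike. For 228812_at the levels were 9.94, 10.33 and 10.15 in control arrays, 9.81, 9.90 and 9.72 after CD40L, and 9.87, 10.12 and 9.85 after LPS. For 235242_at they were 10.43, 10.66 and 10.60 in control arrays, 10.18, 10.40 and 10.13 after CD40L, and 10.28, 10.62 and 10.40 after LPS. In both cases all CD40L arrays were below all control arrays and the LPS arrays overlapped with the controls. After CD40L 228812_at fell by 0.33 ± 0.066 (adjusted p = 0.00591) and 235242_at by 0.33 ± 0.061 (adjusted p = 0.00369). The LPS values were −0.19 (adjusted p = 0.195) and −0.13 (adjusted p = 0.440), and CD40L against LPS gave −0.14 (adjusted p = 0.999) and −0.20 (adjusted p = 0.439). The calls of both probe sets were lost without the batch term (adjusted p = 0.115 and 0.110), with the batch as a random effect (0.0727 and 0.0677) and without replicate 3 (0.108 and 0.0869), and that of 228812_at also without CD40L replicate 2 (0.0622) or 3 (0.0559).

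The other 3 REL probe sets did not pass the threshold in any comparison. The bright probe set 206036_s_at gave 9.93, 9.62 and 9.56 in control arrays, 9.80, 9.80 and 9.06 after CD40L, and 9.78, 9.99 and 9.04 after LPS, with a log2 fold change of −0.15 ± 0.11 after CD40L (adjusted p = 0.601). Both stimulated arrays of batch 3 were low and those of batch 2 were above their control. Without replicate 2 this probe set was called lower after CD40L (−0.32, adjusted p = 0.0128) and after LPS (−0.34, adjusted p = 0.0155), and so it was without control replicate 2 (−0.36, adjusted p = 0.00251, and −0.31, adjusted p = 0.0223). REL probe set 239486_at had means of 8.06 ± 0.12, 8.08 ± 0.38 and 8.22 ± 0.39 (SD, n = 3) in control, CD40L and LPS arrays, and 206035_at was dim at 6.34 ± 0.16, 6.30 ± 0.11 and 6.33 ± 0.12. Which part of the REL transcripts each probe set reads was not analysed here.

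NFKB1, whose precursor is processed to the canonical partner of RELA and REL, was not past the threshold. Its levels were 9.80, 9.27 and 9.53 in control arrays, 10.09, 9.87 and 9.52 after CD40L, and 9.94, 9.79 and 9.40 after LPS. The stimulated arrays of batches 1 and 2 were above their control and those of batch 3 were not. The log2 fold change was 0.30 ± 0.092 after CD40L (adjusted p = 0.0812) and 0.18 ± 0.092 after LPS (adjusted p = 0.506). Without replicate 3 the CD40L value was 0.45 and passed the threshold (adjusted p = 0.0316), as it did without control replicate 3 (0.45, adjusted p = 0.00381).

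RELA, the main transactivating subunit of the canonical pathway, gave no call by either probe set. The means of 201783_s_at were 8.92 ± 0.17, 9.08 ± 0.20 and 8.99 ± 0.19 (SD, n = 3) in control, CD40L and LPS arrays, and its CD40L value was 0.15 (95% interval −0.014 to 0.32, adjusted p = 0.379). Those of 209878_s_at were 8.38 ± 0.19, 8.42 ± 0.14 and 8.36 ± 0.17, with a CD40L value of 0.042 (95% interval −0.12 to 0.20, adjusted p = 0.887). The LPS values of RELA were 0.072 and −0.022. In batch 2 the CD40L array exceeded the control by 0.47 and 0.32, while in the other batches the difference was between −0.10 and 0.010.

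**Figure D3:**
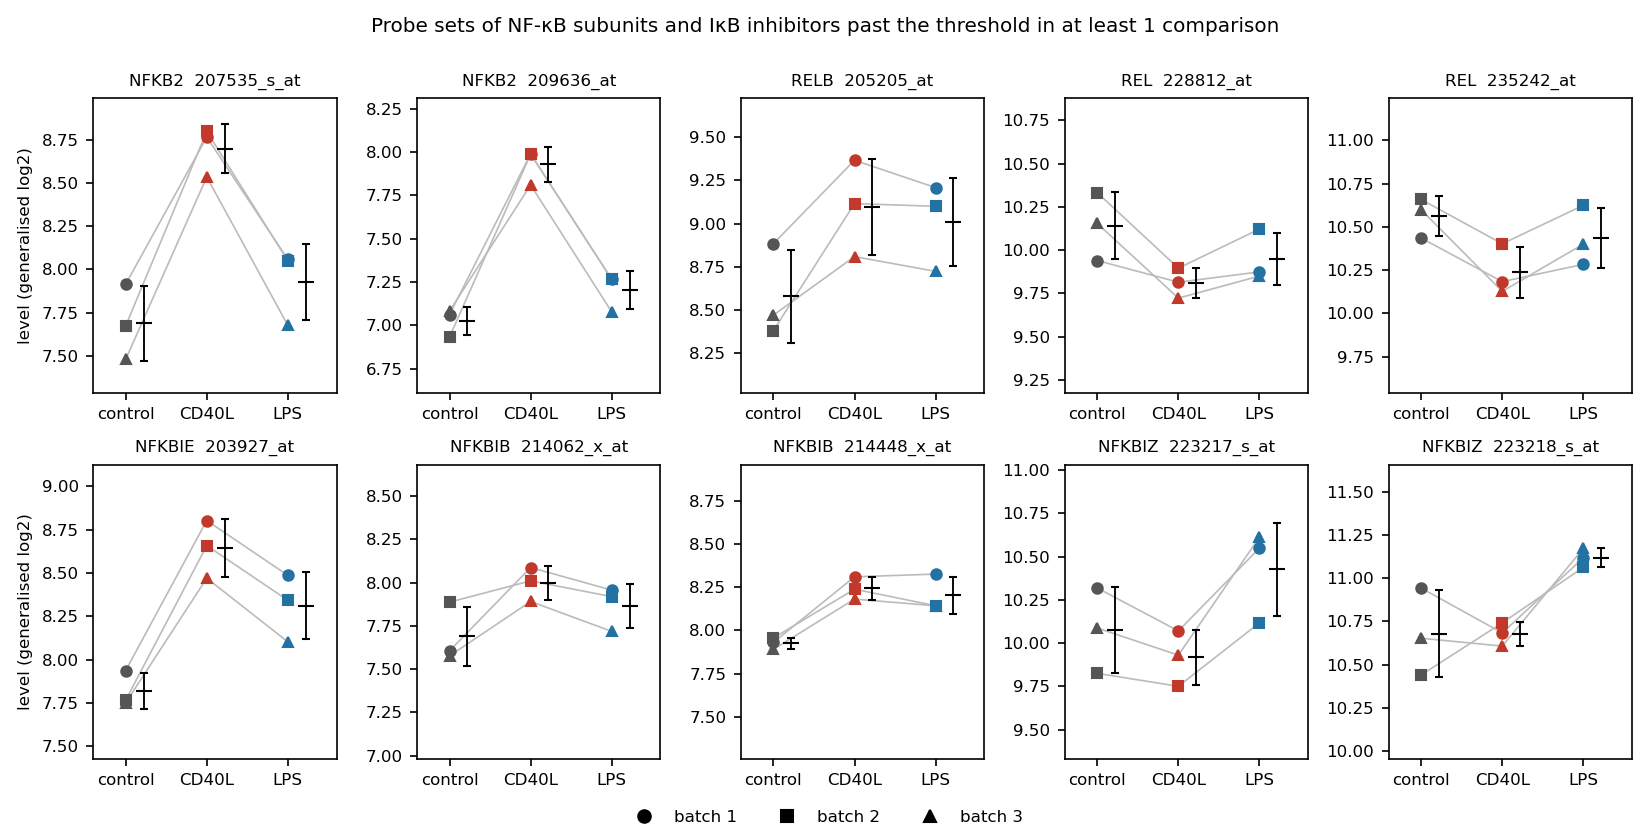
Levels on the generalised log2 scale (y axis, the same span in each panel) of the 10 NF-κB and IκB probe sets past the threshold in at least 1 comparison, for control, CD40L and LPS arrays (x axis). Points are arrays, grey lines join arrays of a batch, and bars show the mean ± SD (n = 3). The CD40L arrays of NFKB2 207535_s_at, between 8.53 and 8.80, lie above all others, and the LPS arrays of NFKBIZ 223218_s_at, between 11.06 and 11.17, lie above all others.

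Among the cytoplasmic inhibitors, NFKBIE, which encodes IκBε, had the largest change after either stimulus. The levels were 7.94, 7.76 and 7.75 in control arrays, 8.80, 8.66 and 8.47 after CD40L, and 8.49, 8.34 and 8.10 after LPS. All stimulated arrays were above all control arrays, and in each batch the order was control, LPS, CD40L. NFKBIE rose by 0.83 ± 0.060 after CD40L (1.77-fold, adjusted p = 4.22e-07) and by 0.49 ± 0.060 after LPS (1.41-fold, adjusted p = 0.000336). The batch differences were 0.87, 0.89 and 0.72 after CD40L and 0.55, 0.58 and 0.35 after LPS. Without the batch as a term the LPS call was lost (adjusted p = 0.0548).

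CD40L exceeded LPS for NFKBIE by 0.33 ± 0.060 (adjusted p = 0.0172), with batch differences of 0.32, 0.32 and 0.37, although the CD40L array of batch 3 was just below the LPS array of batch 1. This difference had the same direction in every setting, between 0.29 and 0.36, but its adjusted p rose above 0.05 without any of the CD40L arrays (0.163, 0.129 and 0.113 without CD40L replicate 1, 2 and 3) and without any of the LPS arrays (0.146, 0.0695 and 0.267). It also did so without replicate 1 (0.347), without replicate 3 (0.267), without the batch term (0.788) and with the batch as a random effect (0.486).

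NFKBIB, which encodes IκBβ, was measured by 3 probe sets, and the brighter ones carry the suffix x, meaning that some of their probes may match other transcripts. The levels of 214448_x_at were 7.93, 7.96 and 7.89 in control arrays, 8.31, 8.24 and 8.18 after CD40L, and 8.33, 8.14 and 8.14 after LPS. The stimulated arrays of either kind were all above the controls. This probe set of NFKBIB was higher by 0.32 ± 0.058 after CD40L (adjusted p = 0.00307) and by 0.28 ± 0.058 after LPS (adjusted p = 0.0177), and CD40L against LPS gave 0.040 (95% interval −0.083 to 0.16). The CD40L call was lost without replicate 1 (adjusted p = 0.0746). The LPS call was lost without the batch term (0.0760), with LPS and control arrays alone (0.0579), without replicate 1 (0.334) or 3 (0.142), without control replicate 1 (0.112) and without LPS replicate 1 (0.220) or 3 (0.102).

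NFKBIB probe set 214062_x_at gave 7.61, 7.89 and 7.58 in control arrays, 8.09, 8.01 and 7.89 after CD40L, and 7.96, 7.92 and 7.72 after LPS. The lowest CD40L array and the highest control array were nearly equal. It was higher after CD40L by 0.31 ± 0.068 (adjusted p = 0.0120), and the LPS value was 0.17 (adjusted p = 0.279). The CD40L call was lost after quantile normalization (adjusted p = 0.0511), without the batch term (0.113) or with it as a random effect (0.0749), without replicate 1 (0.230) or 3 (0.116), without control replicate 1 (0.105) and without CD40L replicate 1 (0.105) or 3 (0.0788). The LPS value passed the threshold without control replicate 2 (0.26, adjusted p = 0.0367). The remaining NFKBIB probe set, 228388_at, had means of 6.65, 6.61 and 6.61 in control, CD40L and LPS arrays, and its values were −0.035 after CD40L and −0.040 after LPS (adjusted p = 0.881 and 0.905).

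NFKBIA encodes IκBα, the classical feedback inhibitor of NF-κB, and was not past the threshold after either stimulus. The levels of its bright probe set 201502_s_at were 10.96, 10.10 and 10.18 in control arrays, 10.90, 10.59 and 10.32 after CD40L, and 10.86, 10.45 and 10.41 after LPS. The control array of batch 1 was higher than all other arrays, and only in batches 2 and 3 did the stimulated arrays exceed their control. The SD of NFKBIA over the control arrays, 0.48, was larger than that of 99.9% of all probe sets. This share was also high for RELB and NFKB1 (98.8% each) and for NFKBIZ (98.3% and 98.5%). For NFKB2 it was 97.2% (207535_s_at) and 59.9% (209636_at), for RELA 93.6% and 95.8%, and for the REL probe sets from 80.5% to 96.2%. For NFKBIB it was 93.6% (214062_x_at) and 15.9% (214448_x_at), and for NFKBIE 74.8%. The log2 fold change of NFKBIA was 0.19 ± 0.084 after CD40L (95% interval 0.014 to 0.37, adjusted p = 0.266) and 0.16 ± 0.084 after LPS (adjusted p = 0.517), with CD40L batch differences of −0.062, 0.49 and 0.14. Without control replicate 1 the CD40L value of NFKBIA was 0.32 and passed the threshold (adjusted p = 0.0292), while the LPS value was at most 0.29 in all settings and did not. NFKBIA probe set 231699_at was dim, with means of 6.30, 6.32 and 6.36.

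NFKBIZ encodes IκBζ, a nuclear IκB protein known to be induced through Toll-like receptors and to act with NF-κB on a subset of its targets. The levels of 223218_s_at were 10.94, 10.44 and 10.65 in control arrays, 10.68, 10.74 and 10.61 after CD40L, and 11.12, 11.06 and 11.17 after LPS. Those of 223217_s_at were 10.32, 9.83 and 10.09 in control arrays, 10.07, 9.75 and 9.93 after CD40L, and 10.55, 10.12 and 10.61 after LPS. The LPS array was the highest of every batch by both probe sets, while the CD40L and control arrays overlapped. All LPS arrays were above all controls for 223218_s_at. For 223217_s_at the LPS array of batch 2 (10.12) was below the control array of batch 1 (10.32).

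After LPS NFKBIZ rose by 0.44 ± 0.084 for 223218_s_at (1.36-fold, adjusted p = 0.0108) and by 0.35 ± 0.067 for 223217_s_at (1.27-fold, adjusted p = 0.0108). After CD40L the values were −0.00073 ± 0.084 (adjusted p = 0.999, between −0.15 and 0.13 over the alternatives) and −0.16 ± 0.067 (adjusted p = 0.238), and quantile normalization brought the latter past the threshold (−0.24, adjusted p = 0.0192). In the direct comparison CD40L was below LPS by 0.51 for 223217_s_at (−0.51 ± 0.067, adjusted p = 0.00136), with batch differences of −0.48, −0.37 and −0.68. For 223218_s_at the difference was −0.44 ± 0.084 (adjusted p = 0.0283), with batch differences of −0.43, −0.32 and −0.56. The arrays of the stimuli did not overlap for either probe set.

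The NFKBIZ calls depended on the arrays in the fit. For 223217_s_at the LPS call was lost without the batch term (adjusted p = 0.448) or with it as a random effect (0.323), without replicate 1 (0.0625) or 3 (0.179), without control replicate 3 (0.0545) and without LPS replicate 1 (0.0538) or 3 (0.122). For 223218_s_at it was lost without the batch term (0.0779) or with it as a random effect (0.0532), without replicate 3 (0.202) and without LPS replicate 2 (0.0844) or 3 (0.131). Against LPS, CD40L kept its call for 223217_s_at except without the batch as a fixed term (0.535 without it and 0.303 as a random effect), without replicate 3 (0.119) and without CD40L replicate 3 (0.0507). The call of 223218_s_at was lost without the batch term (0.229) or with it as a random effect (0.152), without replicate 1 (0.144) or 3 (0.807), without CD40L replicate 1 (0.374) or 3 (0.371), and without LPS replicate 1, 2 or 3 (0.100, 0.207 and 0.443). The values of these NFKBIZ calls kept their sign.

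**Figure D4:**
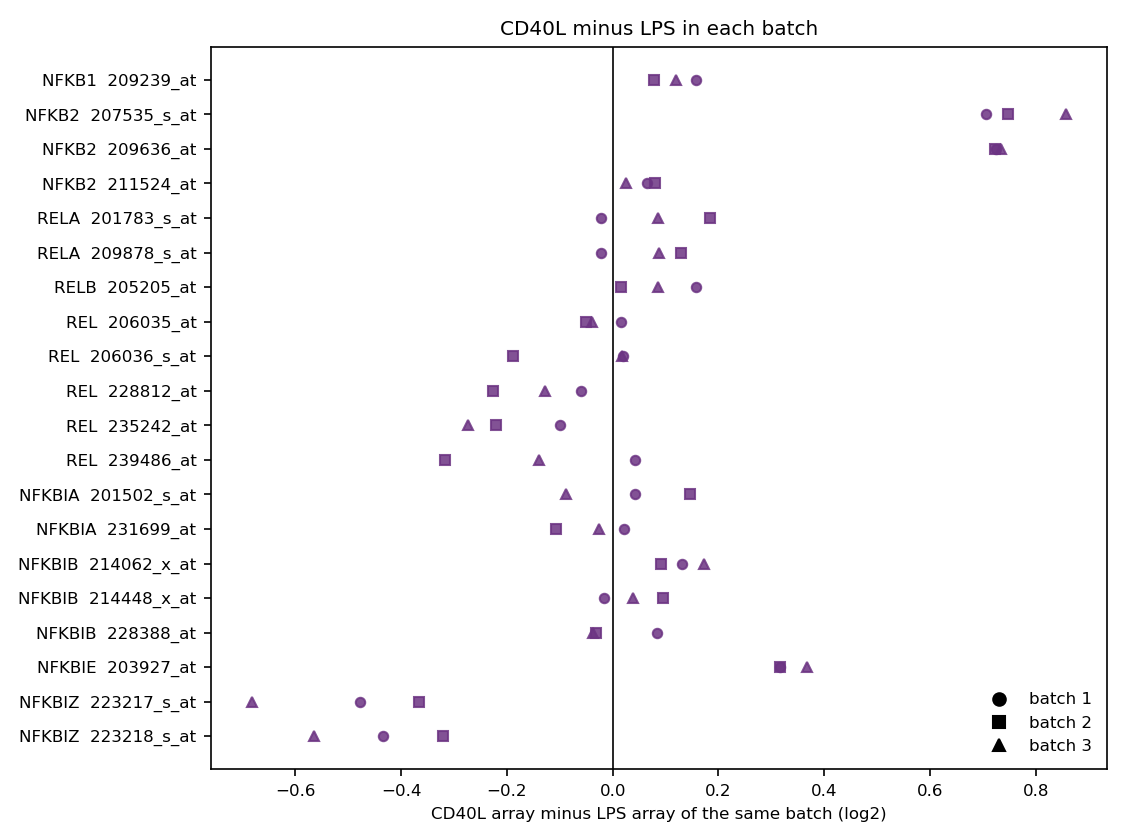
CD40L array minus LPS array of the same batch on the log2 scale (x axis) for the 20 probe sets of NF-κB subunits and IκB inhibitors (y axis), with a symbol for each batch. The batch differences lie between 0.71 and 0.86 for NFKB2 207535_s_at, between 0.32 and 0.37 for NFKBIE and between −0.68 and −0.37 for NFKBIZ 223217_s_at, and those of most other probe sets lie around 0.

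The kinases, adaptors and further regulators of the pathway were described from a list of 28 genes, of which 25 had a probe set assigned to them alone, taking the brightest of each gene. TRAF2, BIRC3 and RIPK1 are not analysed here. After CD40L 4 of the 25 were higher and 2 lower, against 5.03% and 2.92% of the brightest probe sets of all genes, and the median log2 fold change was 0.11 beside 0.0050 over all probe sets. IKBKE, a kinase related to the IκB kinases, was higher by 0.72 ± 0.071 (adjusted p = 1.11e-05). MAP3K14, which encodes NIK, was higher by 0.64 ± 0.074 (adjusted p = 5.09e-05) from a dim control level of 6.44. TNFAIP3, which encodes the deubiquitinating feedback inhibitor A20, was higher by 0.63 ± 0.059 (adjusted p = 5.69e-06). The lower genes were TRAF5 and BIRC2, both by 0.23 in size (−0.23, adjusted p = 0.0447 and 0.0327).

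After LPS 2 of the 25 regulators were higher, against 1.62% of the brightest probe sets, and 0 were lower by limma (background 1.48%), with 2 lower at an unadjusted p under 0.05. The higher genes were IKBKE at 0.72 ± 0.071 (adjusted p = 8.33e-05) and TNFAIP3 at 0.39 ± 0.059 (adjusted p = 0.00192). In the direct comparison 2 regulators were higher after CD40L (background 0.491%) and 0 were lower by limma (background 0.152%), 0 also at an unadjusted p under 0.05. MAP3K14 exceeded its LPS level by 0.61 ± 0.074 (adjusted p = 0.000628) and CYLD, another deubiquitinase that restrains the pathway, by 0.30 ± 0.061 (adjusted p = 0.0446).

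Of the receptors and their adaptors, 9 of 11 listed genes were measured, TICAM2 and IRAK4 not being analysed here. TLR4 was lower after CD40L by 0.26 in size (−0.26 ± 0.070, adjusted p = 0.0423), and no other gene of this list passed limma's threshold in any comparison. At an unadjusted p under 0.05, 1 gene was higher after CD40L and 1 after LPS, in both cases IRAK1, an adaptor kinase of Toll-like receptors (0.18 and 0.16), and 1 was lower in CD40L against LPS, TLR4 (−0.15, adjusted p = 0.989). CD40 had a value of −0.034 after CD40L and of −0.014 after LPS. The LPS co-receptor CD14 was below the median level of the array, at 6.25 in control arrays.

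Target genes known from textbooks were described from a list of 48, of which 45 were measured, BIRC3, CCL3 and MIR155HG not being analysed here. The list was chosen with earlier results of these data known, so its counts beside the background are descriptive. After CD40L 16 were higher and 2 lower, against 5.03% and 2.92% of the brightest probe sets of all genes, with a median log2 fold change of 0.13 beside 0.0050 over all probe sets. The largest changes were those of the adhesion molecule CD58 at 1.62 ± 0.089 (adjusted p = 3.51e-08), of the activation marker CD83 at −1.02 ± 0.063 (adjusted p = 9.52e-08) and of the adhesion molecule ICAM1 at 1.00 ± 0.064 (adjusted p = 1.34e-07). After LPS 9 were higher and 0 lower by limma, 3 being lower at an unadjusted p under 0.05 (background 1.62% and 1.48%), and the median was 0.067 beside 0.0029. The largest were CD58 at 0.83 ± 0.089 (adjusted p = 0.000145), the transcription factor IRF4 at 0.58 ± 0.077 (adjusted p = 0.000766) and ICAM1 at 0.45 ± 0.064 (adjusted p = 0.00112). In the direct comparison 7 targets were higher after CD40L and 2 lower (background 0.491% and 0.152%), with a median of 0.095 beside 0.0049. CD83 was lower by 0.98 in size (−0.98 ± 0.063, adjusted p = 3.33e-06), CD58 higher by 0.79 ± 0.089 (adjusted p = 0.000336) and the caspase regulator CFLAR higher by 0.58 ± 0.077 (adjusted p = 0.00136). The probe sets of CD58 and CFLAR carry the suffix x, so some of their probes may match other transcripts.

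For 5 members the genes of most similar pattern were searched over all probe sets assigned to 1 other gene, as the lowest root mean square difference between the 6 differences of log2 level, each a stimulated array minus the control array of its batch. For NFKB2 these were CTSH at 0.087, WNT5A at 0.10 and COL1A1 at 0.12, where the median over all probe sets searched was 0.741. The COL1A1 probe set concerned was dim, with a mean level of 6.28, and the brightest COL1A1 probe set had a CD40L value of −0.14 (adjusted p = 0.218). For RELB they were KCNQ5 at 0.077, CENPV at 0.082 and PEF1 at 0.083 (median 0.512). For NFKBIE they were LOXL2 at 0.051, ZNF385C at 0.057 and FYTTD1 at 0.072 (median 0.687). LOXL2 had values of 0.83 after CD40L and 0.48 after LPS, beside 0.83 and 0.49 for NFKBIE.

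For NFKB1 the most similar patterns were those of GTF2I at 0.024, MIEF1 at 0.032 and SF3A1 at 0.035 (median 0.358). For NFKBIA they were those of PAIP1 at 0.040, SNAPC5 and HNRNPL, both at 0.046 (median 0.286). None of these 6 genes passed the threshold after CD40L or LPS, with adjusted p between 0.0627 and 0.538. These likenesses describe 6 differences that share 3 control arrays, and a deviating control array enters both differences of its batch.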

How the data were processed

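The data are 9 HG-U133 Plus 2.0 arrays of BL2 cells, 3 each of control, CD40L and LPS. Background correction and normalisation by variance stabilisation were done on probes by the authors, who then used median polish to obtain probe set values, deposited on a generalised log2 scale. Software versions are not given in the sources used here. The deposited values were used as they are. Of 54675 probe sets 62 AFFX controls were left out. The number of arrays limits the precision.

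The 3 comparisons were tested two-sided with lmFit and eBayes of limma 3.58.1 (R 4.3.3) on all 9 arrays, with terms for condition and batch and Benjamini-Hochberg adjustment over 54613 probe sets. The residual degrees of freedom were 4 and the prior ones 11.6. Batches were modelled as in the study's methods, and the sample labels number them. Arrays sharing a number had deviations from their group means that correlated at −0.181 to 0.466, with a mean of 0.217. P-values and SE rest on the spread between these arrays after the batch term, moderated by limma towards that of all probe sets. An SE can thus differ from the spread of a probe set's own batch differences. The test was checked on simulated data.

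The members, lists, the naming rule and the markers were chosen with earlier results of these data known. Their counts beside a background are therefore descriptive. Every probe set of a member is given, with each array where it passed the threshold in at least 1 comparison, and of each list the 3 largest changes past it are named. NFKBIA, NFKB1 and REL 206036_s_at are also given by array, and CYLD, TRAF5, BIRC2, CD40, CD14, IRAK1, BCL6, CD79A, CD79B, CD22, PAX5 and BLNK were named after their values were seen. Alternatives were no batch term, the batch as a random effect (statmod 1.5.0), 2 groups only, quantile normalization, centring on the median, leaving out dim probe sets, AFFX probe sets kept, an intensity trend with robust estimation, and leaving out each replicate and each array. Promoters are from RefSeq (GRCh38.p14).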

Additional observations from a re-analysis of the deposited data

How the results depend on the processing

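Of the 60 values (20 probe sets in 3 comparisons), 18 were called, and none of these changed sign in any alternative. In 5 the call was kept in every alternative run, namely both bright NFKB2 probe sets for CD40L against control and against LPS, and NFKBIE for CD40L against control. Without the replicate block, members higher and lower were 4 and 0 for CD40L against control, 0 higher for LPS against control, and 2 and 0 for CD40L against LPS. With the block as a random effect (consensus correlation 0.0724) they were 0 lower for CD40L against control, 2 higher for LPS against control and 0 lower for CD40L against LPS. Leaving out a replicate or an array gave 4 to 7 higher and 0 to 3 lower for CD40L against control, 2 to 6 and 0 to 1 for LPS against control, and 2 to 3 and 0 to 2 for CD40L against LPS. Counting genes by the brightest or the most changed probe set left 5, 4 and 3 genes called. Over all probe sets, 2027 were higher and 1022 lower for CD40L against control, 637 and 487 for LPS against control, and 164 and 52 for CD40L against LPS. These counts were 884 and 562, 156 and 166, and 64 and 9 without the block, 1112 and 677, 247 and 248, and 81 and 16 with it as a random effect, and 1707 and 1694, 775 and 870, and 183 and 89 after quantile normalization. With the compared groups alone they were 1122 and 676 for CD40L against control and 387 and 161 for CD40L against LPS. Leaving out arrays gave 812 to 2517 and 449 to 1332, 147 to 856 and 115 to 722, and 29 to 349 and 5 to 137. The filter on dim probe sets removed 3 of the members. With it the counts over the remaining probe sets were 1991 and 976, 577 and 443, and 139 and 42. The largest move of the median log2 fold change of all probe sets by a scaling was −0.0053, after quantile normalization. The cause of these differences was not tested. A dim level, as of NFKB2 211524_at, can hide a change.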
